A study of Mus musculus with 27 samples.

Results

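The circular RNAs described here are 211 gene symbols whose circular RNA was listed at 5 TPM or more in each of 27 mouse lung libraries, out of 4416 symbols in the circular table. TPM, a read abundance scaled for transcript length and library size, is the unit the authors deposited. The circular table gives 1 value per gene symbol and library without the position of any back-splice junction. A value is therefore the circular RNA listed for a symbol, not that of one particular circle. The floor was passed by 215 symbols. Dock4, Asph, Gsap and Evi5 passed it and were set aside by name, and Plcg2 and Fndc3a, also set aside, did not reach it. The members were chosen on these circular values, so their presence in every library is how they were selected and is not a result.

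A circular RNA forms when the splicing machinery joins the end of an exon to the start of the same or an upstream exon of the same transcript. The product has no free ends and no poly(A) tail, so libraries made by ribosomal RNA depletion keep it while poly(A) selection loses it, and exonucleases that degrade linear RNA do not attack it. Host genes are commonly long, with many exons and with long introns around the circularised exons, and the circle and the linear mRNA draw on the same nascent transcript.

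Each library was made from 1 mouse of the strain BALB/c AnNHsd, 87 days old when a protocol of 35 days ended, and from its left lung lobe. Dex_CDGHDM mice (n = 6) were sensitized with house dust mite extract (HDM) and cyclic di-GMP (CDG), a bacterial messenger used as an adjuvant, and were injected intraperitoneally with dexamethasone, a glucocorticoid, at 3 mg/kg, 3 times in all (days 11, 18 and 25). AM155 mice (n = 6) received 3 intravenous doses of 2 mg/kg of an antisense oligonucleotide against miR-155 in lipid nanoparticles on the same days. CDG_HDM mice (n = 10) were sensitized and otherwise untreated, and Saline mice (n = 5) were not sensitized. The labels do not state in words that the AM155 mice were sensitized, and there was no group given vehicle or empty nanoparticles. RNA integrity numbers ran between 6.9 and 8.6. The depth of each library is unknown, because TPM keeps no read counts.

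Some libraries stood apart in the circular table. Circular Sftpc, the symbol of surfactant protein C of alveolar type 2 cells, was above 100000 TPM in Dex_CDGHDM 4, AM155 5 and AM155 6. The members made up 4.73 to 36.5% of the circular TPM of a library, and 23.2 to 37.7% once Sftpc and the club cell gene Scgb1a1 were set aside. Over the members, the median log2 deviation from each symbol's own median was -0.46 in AM155 6 and -0.24 in Dex_CDGHDM 4, and it ran between 0.04 and 0.25 in the 5 Saline libraries. The circular values of a library summed to between 32873 and 240756 TPM and the linear values to between 542264 and 858506 TPM. Whether both tables were scaled together is not given in the sources used here, so a ratio of circular to linear TPM compares values across tables. All markers of lung epithelium and vessels looked at (8 of 8, Sftpc, Ager and Pecam1 among them) were above 0 in every library of the linear table.

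Close to the floor, the lowest circular values over the libraries were 5.09 TPM for Usp3, 5.11 TPM for Rras2 and 5.13 TPM for Arid1b. Just below it were Pias1 at 4.99 TPM, Hira at 4.96 TPM and Rnf216 at 4.92 TPM. Symbols on the 2 sides of the floor thus lay within 1 TPM of each other in their lowest library. Of the 4205 other symbols, 953 were above 0 in 1 library only, 2179 in at most 5 libraries and 171 in none.

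Gene size was looked up for the members. In the GENCODE M21 annotation (GRCm38), matched by symbol for 209 of the 211, a member's longest transcript by exon number had a median of 16 exons, against 14 for the other symbols of the circular table and 6 for 12834 protein-coding genes that were measured as linear RNA and absent from it. The gene body spanned a median of 94725 bases for members, against 59848.5 bases for the other circular symbols and 14315.5 bases for the genes absent from the table. The longest internal exon had a median of 301, 244 and 209 bases in the same order. Size was not particular to the members: the other circular symbols above 0 in every library had the same median of 16 exons, a longer median span of 122330 bases and a longest internal exon of 259 bases. These are descriptions without a test, and gene length and RNA level were not separated. Some of the most abundant members were small genes. Clec2d spans 5920 bases with 5 exons (chromosome 6, 129180615 to 129186534, plus strand), and Selenbp1 spans 11703 bases with 12 exons (chromosome 3, 94933056 to 94944758, plus strand). Members lay on 19 chromosomes, with 0 on X or Y. For 8 members the symbol's gene body overlaps another coding gene on the same strand, among them the readthrough symbols Gm20388 and Gm21992, and how reads were divided between them is not given, so their values are uncertain.

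Levels differed widely between members. The median circular value of a member over the 27 libraries ran between 8.03 and 725 TPM, with quartiles of 16.7, 28.8 and 55.5 TPM. There were 29 members at 100 TPM or more, 111 between 20 and 100 TPM and 71 below 20 TPM. The 8 most abundant held 29.1% of the summed medians. In order of median, they were Clec2d (725 TPM), a lectin-like ligand of a natural killer cell receptor; Etv6 (652 TPM), a transcriptional repressor of the ETS family needed in blood stem cells; Ddx17 (523 TPM), a DEAD-box RNA helicase; and Qk (439 TPM), the RNA-binding protein quaking, which can promote circular RNA formation. They were followed by Med13l (332 TPM), a subunit of the Mediator kinase module, Ikzf1 (280 TPM), a lymphoid zinc finger transcription factor, Selenbp1 (259 TPM), a selenium-binding enzyme, and Macf1 (233 TPM), a giant protein that links microtubules to actin.

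**Figure D1:**
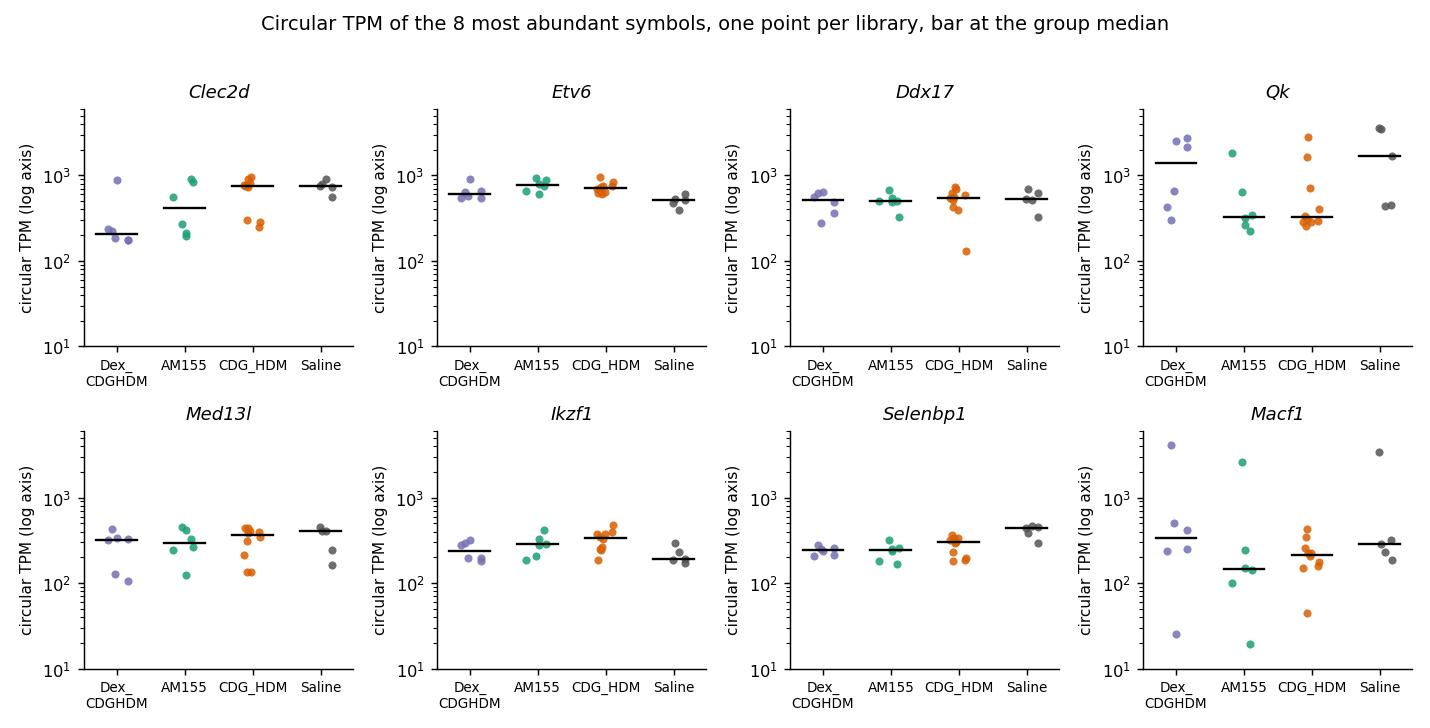
Circular TPM on a log axis for the 8 members with the highest median, by group, with 1 point per library and a bar at the group median. Etv6 lies between 392 and 950 TPM in all libraries, whereas Qk runs between 224 and 3582 TPM and Macf1 between 19.6 and 4145 TPM.

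The most abundant members differed in how steady they were. Circular Etv6 was 543, 604 and 906 TPM (lowest, median, highest) in Dex_CDGHDM lungs, 611, 768 and 921 TPM in AM155 lungs, 610, 719 and 950 TPM in CDG_HDM lungs, and 392, 476, 520, 534 and 611 TPM in the 5 Saline lungs. The CDG_HDM and Saline values met only at their edges, where the lowest CDG_HDM library and the highest Saline library differed by about 1 TPM. Circular Selenbp1 was 205, 242 and 278 TPM in Dex_CDGHDM lungs, 166, 244 and 321 TPM in AM155 lungs, 180, 300 and 363 TPM in CDG_HDM lungs, and 295, 388, 434, 451 and 465 TPM in Saline lungs. Of the Saline libraries, 4 of 5 lay above all CDG_HDM libraries. Circular Qk was 301, 1400 and 2748 TPM in Dex_CDGHDM lungs, 224, 330 and 1847 TPM in AM155 lungs, 256, 323 and 2831 TPM in CDG_HDM lungs, and 439, 450, 1708, 3487 and 3582 TPM in Saline lungs. Its libraries fell into a lower range up to 716 TPM and an upper range of 9 libraries starting at 1634 TPM, and both ranges held libraries of every group. Clec2d had a similar division, with 11 libraries up to 300 TPM and 16 at 555 TPM or more. Of its lower libraries, 5 were Dex_CDGHDM, 3 AM155, 3 CDG_HDM and 0 Saline. Since this division was noticed in the values, it carries no test.

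Circular values were less reproducible between mice than the linear RNA of the same symbols. The coefficient of variation over the 27 libraries had a median over members of 30.3% for circular TPM (range 11.5 to 253%) and 13.6% for linear TPM (range 8.99 to 36.9%). The log2 SD within groups had a median of 0.41 for circular and 0.19 for linear TPM, and it was larger for circular TPM in 204 of 211 members. The steadiest were Nktr, a cyclophilin-like protein of natural killer cells (11.8 to 19.0 TPM over all libraries), Hnrnpll, a splicing regulator of lymphocytes (6.57 to 12.4 TPM), and Zzz3, a reader subunit of the ATAC histone acetyltransferase complex (11.1 to 21.7 TPM). Circular values stayed within a factor of 2 over the libraries for 27 members and within a factor of 4 for 127.

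At the other end, 14 members had a gap of a factor of 4 or more between neighbouring libraries. In 7 of them 1 library stood above the rest, in 6 several libraries did, and for Canx, an endoplasmic reticulum chaperone, 1 library (Saline 4) lay below at 9.21 TPM against 43.6 to 85.4 TPM. The 3 most variable members were of this kind. Rabgap1l, a Rab GTPase regulator, was listed at 2177 TPM in AM155 5 and at 22.3 to 171 TPM in the 26 other libraries. Lrch1, a leucine-rich repeat protein, was at 747 and 857 TPM in AM155 11 and CDG_HDM 8 and at 14.8 to 62.3 TPM elsewhere. Gigyf2, a translational repressor, was at 785 to 908 TPM in AM155 2, CDG_HDM 8 and Saline 4 and at 19.4 to 77.3 TPM elsewhere. The high libraries of Lrch1 and of Gigyf2 came from different groups, and the linear RNA of these symbols showed no such step: linear Gigyf2 was 32.7 to 45.5 TPM in its 3 high libraries and 28.4 to 57.7 TPM in the others.

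Chd2, a chromatin remodeller, was at 1465 to 1667 TPM in Dex_CDGHDM 3, Dex_CDGHDM 6, AM155 8 and CDG_HDM 12 and at 34.3 to 143 TPM in the others. Nedd4, a ubiquitin ligase, was at 198 to 414 TPM in Dex_CDGHDM 6, AM155 8 and CDG_HDM 3, 10, 12 and 13, and at 8.01 to 19.8 TPM in the other 21 libraries. Dex_CDGHDM 6, AM155 8 and CDG_HDM 12 were thus high for both symbols, and no Saline library was high for either. For other members with such gaps, high libraries included Saline 4 (Gigyf2), Saline 2 (Macf1 and Iqgap1) and Saline 10 (Lrrk2). Chd2 and Nedd4 were named after their values were seen, so their shared libraries carry no test. Linear Chd2 was 66.8 to 91.8 TPM in the high libraries and 51.2 to 87.2 TPM in the others, and linear Nedd4 was 132 to 209 TPM and 123 to 221 TPM. Because the table gives no junctions, whether a different circle of the same symbol was counted in the high libraries was not tested.

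**Figure D2:**
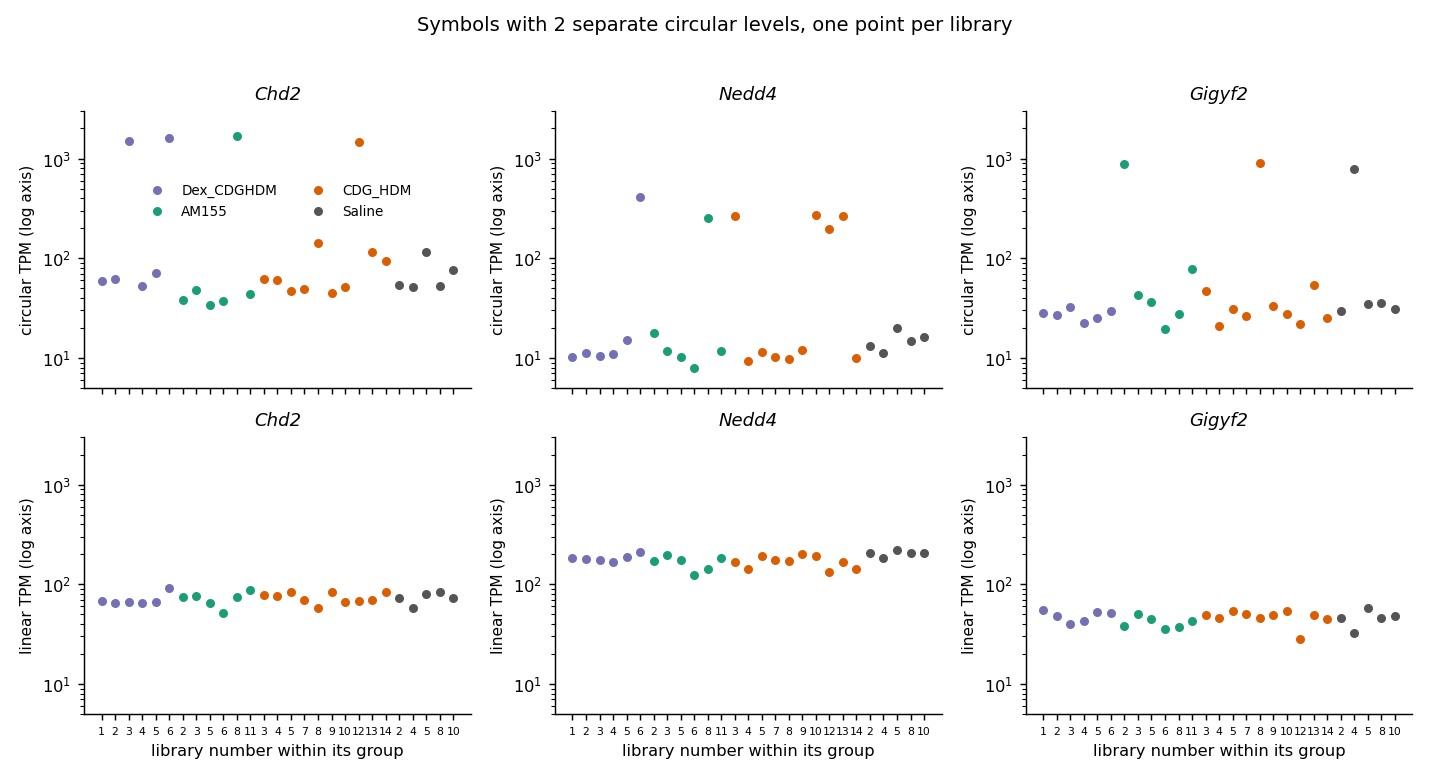
Circular (top) and linear (bottom) TPM on log axes for Chd2, Nedd4 and Gigyf2, with 1 point per library, grouped from left to right as Dex_CDGHDM, AM155, CDG_HDM and Saline. Circular values form 2 separate levels (for Nedd4, 198 to 414 against 8.01 to 19.8 TPM), and linear values form 1.

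Set against the linear TPM of the same symbol, circular TPM was of similar size for the typical member. Members were chosen on circular TPM, the upper part of this ratio, which favours high ratios. Whether both tables share a scale is not given, so the ratio is of deposited values. The ratio of circular to linear TPM had a median over members of 1.08, between 0.0196 and 22.8. It was above 1 in the median library for 111 members and above 2 for 44. The ratio was above 1 in all 27 libraries for 59 members, in none for 41 and in some for 111. The 4 highest median ratios belonged to Etv6 (22.8), Med13l (15.1), Ddx17 (11.4) and Asxl1 (9.92), a Polycomb-associated chromatin protein, each above 1 in every library. The 4 lowest belonged to Kcnq1 (0.0196), a potassium channel, Nedd4 (0.0651), Qrich1 (0.0826), a stress-response regulator, and Chmp3 (0.0870), a subunit of the ESCRT-III membrane machinery. Kcnq1 combined 7.27 to 30.1 circular TPM with a median of 735 linear TPM, while Etv6 had a median of 29.4 linear TPM.

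**Figure D3:**
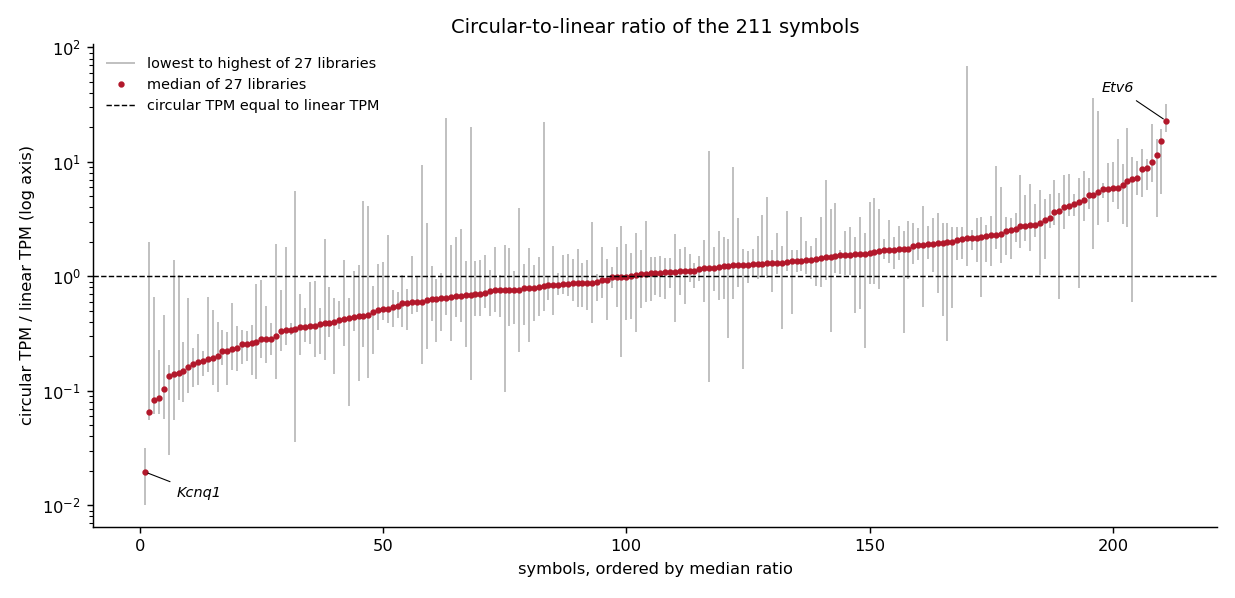
Ratio of circular to linear TPM on a log axis for each of the 211 members, ordered by median ratio, with the range over the 27 libraries as a grey line and the median as a point. The medians climb from Kcnq1 at 0.0196 to Etv6 at 22.8 and cross 1 near the middle of the order.

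By role, the members were spread over nuclear regulators, signalling and cytoskeletal proteins. Assignments to a role were made by hand from textbook knowledge, and 26 members were given none or another role. Among 26 transcription factors and cofactors, 19 had a median ratio above 1. Besides Etv6, Med13l and Ikzf1, this group held Nfkb1 (median 110 circular TPM, ratio 2.31), a subunit of NF-kB, and Smad4 (43.2 TPM, ratio 1.10), the common mediator of TGF-beta signalling. Among 21 symbols of the ubiquitin and SUMO pathway, 14 had a ratio above 1 (group median 1.46), including the ligases Rnf169 (8.87) and Rnf214 (8.64) and the SUMO protease Senp1 (5.11). Among 25 chromatin proteins, 13 had a ratio above 1. Those included the kinase Tlk1 (7.31), Arid1b of the BAF complex (7.12) and Ezh2, the methyltransferase of Polycomb repressive complex 2 (6.32).

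RNA-binding proteins were lower on this scale, with a ratio above 1 in 11 of 27 and a group median of 0.68. The exonuclease Xrn2 (63.8 TPM, ratio 1.28) and Fam120a (180 TPM, ratio 2.83) were above 1, and the deadenylase subunits Cnot2 (0.161) and Cnot6l (0.195) were far below. Of 26 kinases, phosphatases and adaptors, 13 had a ratio above 1, with Strn3, a striatin scaffold of protein phosphatase 2A, at 5.90 and Rps6kc1 at 4.03. Of 26 small GTPase regulators and cytoskeletal proteins, 12 had a ratio above 1, led by Arhgap10 (6.76), Arl15 (5.16) and Rasa2 (4.11). Trafficking and metabolic symbols had a ratio above 1 in 8 of 20, and receptors, channels and other membrane proteins in 8 of 14. Among the membrane proteins, Crim1 (2.77), which binds bone morphogenetic proteins, and the receptor Tgfbr2 (0.628) mark the spread. No test was run between roles.

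Some members are familiar hosts of circular RNA in other tissues. Of 20 symbols often described as hosts of abundant mammalian circular RNAs, 17 were in the circular table and 7 were members: Hipk3, Zfp609, Cdyl, Fbxw7, Crim1, Tulp4 and Ankib1. Of all 4416 symbols of the circular table, 4.78% were members. The list was chosen with earlier results of these data known, so the overlap is a description. Hipk3, a nuclear kinase, had 30.9, 37.0 and 54.7 circular TPM (lowest, median, highest) in Dex_CDGHDM lungs, 29.9, 53.8 and 72.6 TPM in AM155 lungs, 26.6, 45.3 and 59.7 TPM in CDG_HDM lungs, and 47.3, 49.4, 50.6, 53.8 and 61.6 TPM in Saline lungs. All groups overlapped. Of 13 factors named in circular RNA formation, Qk alone was itself a member.

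Sensitization was compared first, as CDG_HDM against Saline lungs, in 1 limma model over all 27 libraries on log2(TPM + 1). On this scale the change of low values is understated. Of the 211 members, 2 passed an adjusted p of 0.05 for circular TPM, 1 higher and 1 lower in CDG_HDM, where 0.925% of all 2271 circular symbols tested passed, 0.22% higher and 0.705% lower. Adgre1, the macrophage surface receptor F4/80, rose, and Specc1l, a cytoskeletal crosslinker of actin and microtubules, fell. At an unadjusted p under 0.05 there were 46 of the 211 members and 326 of all 2271 symbols. The members' median change was -0.18 on the log2 scale, beside -0.25 over all symbols tested. The p-values take each mouse as a replicate.

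Circular Adgre1 was 15.0, 35.7 and 61.8 TPM (lowest, median, highest) in CDG_HDM lungs, against 8.29, 8.32, 9.25, 17.7 and 18.8 TPM in Saline lungs. The groups overlapped, since the lowest CDG_HDM library lay below the 2 highest Saline libraries. Its log2 change was 1.40 ± 0.35 (SE), with a limma adjusted p of 0.0465. Linear Adgre1 was 24.7, 42.8 and 59.7 TPM in CDG_HDM lungs, against 12.5, 13.4, 13.8, 14.1 and 14.3 TPM in Saline lungs, with no overlap. The linear log2 change was 1.51 ± 0.15 (limma adjusted p 4.8e-09), and the log2 difference of the circular to linear ratio was -0.11 ± 0.29 (limma adjusted p 0.933). In Dex_CDGHDM and AM155 lungs, circular Adgre1 had medians of 32.1 and 42.7 TPM.

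Circular Specc1l was 11.0, 22.8 and 37.0 TPM in CDG_HDM lungs, against 33.7, 36.6, 38.4, 83.0 and 209 TPM in Saline lungs. Only the highest CDG_HDM library reached the Saline range, and Saline 2 stood far above the rest. The log2 change was -1.41 ± 0.345 (limma adjusted p 0.0465), and without Saline 2 it was -0.97 (limma adjusted p 0.154). Linear Specc1l was 45.7, 59.4 and 74.4 TPM in CDG_HDM lungs, against 85.4, 90.4, 98.4, 98.9 and 106 TPM in Saline lungs, a change of -0.71 ± 0.12 (limma adjusted p 2.43e-05) without overlap. The circular calls of Adgre1 and Specc1l were each lost in 10 of 15 fits that left out 1 library. The Adgre1 call was kept without CDG_HDM 3, 4 or 5 or Saline 8 or 10, and the Specc1l call without CDG_HDM 8 or 12 or Saline 4, 5 or 8. Over those fits the adjusted p ran between 0.0311 and 0.128 for Adgre1 and between 0.0318 and 0.154 for Specc1l, and the direction held in all of them.

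**Figure D4:**
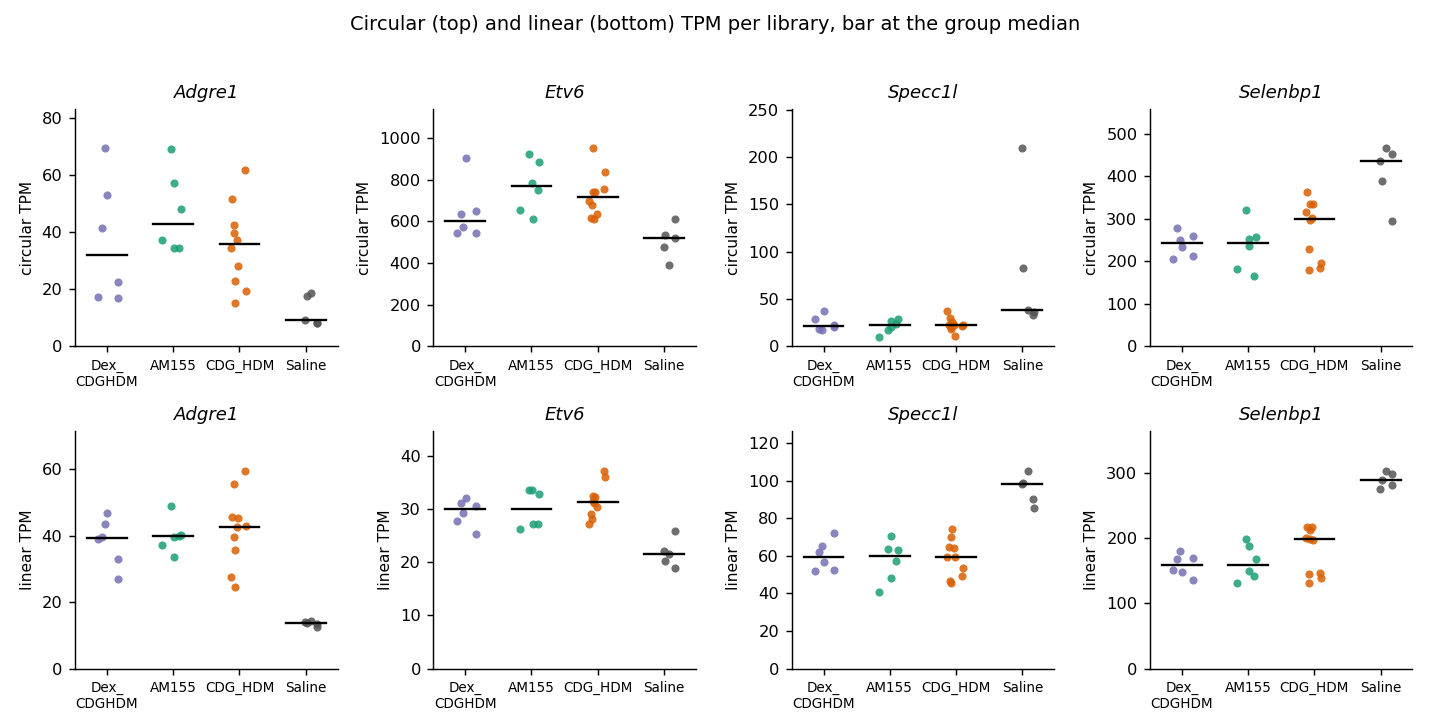
Circular (top) and linear (bottom) TPM of Adgre1, Etv6, Specc1l and Selenbp1 by group, with 1 point per library and a bar at the group median, on axes that start at 0. In the linear panels the CDG_HDM and Saline points do not overlap for any of the 4 symbols, whereas in the circular panels they overlap or meet for all 4.

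The number of circular calls depended on which symbols were tested. When the test was limited to the 340 symbols above 0 in every library, 29 members passed, 6 higher and 23 lower, where 14.7% of those symbols passed, 2.65% higher and 12.1% lower. The 6 higher ones were Adgre1 (1.40 ± 0.33), Atxn1 (1.08 ± 0.32), Tbc1d14 (0.70 ± 0.17), Epsti1 (0.66 ± 0.18), Etv6 (0.52 ± 0.14) and Cbfb (0.50 ± 0.15). The lower ones included Rtkn2, a gene of alveolar type 1 cells (-1.24 ± 0.32), Nebl, a nebulin-related actin-binding protein (-1.06 ± 0.27), Pde5a, the cyclic GMP phosphodiesterase (-0.96 ± 0.28), and Ghr, the growth hormone receptor (-0.76 ± 0.19). All members are in that narrower set by construction, so the set of symbols tested, not the values, differs between these counts. With TPM rescaled so that linear sums were equal, 4 members passed, all higher (Adgre1, Tbc1d14, Etv6 and Cbfb), where 0.749% of symbols passed, 0.396% higher and 0.352% lower. With median-of-ratios scaling 3 passed (Adgre1 and Cbfb higher, Tmeff1 lower), where 0.705% passed, 0.308% higher and 0.396% lower.

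For the linear RNA of the same symbols, 57 of 211 members passed, 8 higher and 49 lower in CDG_HDM, where 32.2% of 17433 symbols passed, 9.35% higher and 22.8% lower. The members' share was lower than that of all symbols as deposited, and near it with the other scalings below. The split between higher and lower moved with the scaling. It was 50 higher and 34 lower with linear sums equalised, where 41.7% of all symbols passed (26.2% higher, 15.5% lower) and 39.8% of members. It was 41 higher and 52 lower with median-of-ratios scaling, where 44% of all symbols passed (22.5% higher, 21.5% lower) and 44.1% of members. The median change of all genes was -0.10 as deposited, 0.04 with sums equalised and 0.01 with median-of-ratios scaling. All 8 higher members, and 34 of the 49 lower ones, kept their call and direction under both. The members named below as higher or lower in linear TPM are among these, except Nedd4, Prrc2b and Atxn2.

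The 8 higher members were Adgre1, Epsti1, Birc2, Ikzf1, Etv6, Cbfb, Lamp3 and Picalm. Epsti1, an interferon-induced gene of macrophages, had 8.81, 10.8 and 14.9 linear TPM (lowest, median, highest) in CDG_HDM lungs, against 3.91, 4.38, 5.76, 6.41 and 7.65 TPM in Saline lungs, a change of 0.92 ± 0.14 (limma adjusted p 7.17e-06) without overlap. Etv6 had 27.3, 31.4 and 37.3 linear TPM in CDG_HDM lungs, against 19.0, 20.3, 21.7, 22.2 and 26.0 TPM in Saline lungs, a change of 0.52 ± 0.08 (limma adjusted p 2.09e-05), also without overlap. Birc2, a ubiquitin ligase that restrains cell death, changed by 0.60 ± 0.11, and Ikzf1 by 0.54 ± 0.17 with overlapping groups (37.2 to 77.7 TPM in CDG_HDM lungs, 19.0 to 51.2 TPM in Saline lungs). The Ikzf1 call was lost without Saline 4 (limma adjusted p 0.0973). Smaller rises were those of Cbfb, the partner subunit of RUNX factors (0.38 ± 0.09), Lamp3, a lysosomal protein of dendritic and type 2 cells (0.26 ± 0.10), and Picalm, a clathrin adaptor (0.24 ± 0.09).

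Markers of leukocytes moved the same way. All 10 of 10 leukocyte genes looked at, including Ptprc, Cd3e and C1qa, were higher in CDG_HDM. Their log2 changes ran between 0.64 ± 0.15 (Ptprc) and 7.28 ± 0.20 (Jchain). Their summed linear TPM was 2526 to 5026 in CDG_HDM lungs and 272 to 430 in Saline lungs. With such unequal changes, the sum does not measure the rise of leukocytes as a whole. None of the 10 genes was at 0 in any library. In bulk lung, more cells of a type and more RNA per cell cannot be told apart, and the part of cell numbers in the rises of Adgre1 and the others was not tested.

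The 5 largest falls in linear TPM were those of Prkce, Pdzd2, Specc1l, Selenbp1 and Mtcl1. Prkce, protein kinase C epsilon, had 12.5, 18.4 and 24.0 linear TPM in CDG_HDM lungs, against 30.2, 33.6, 34.0, 36.1 and 37.6 TPM in Saline lungs, and changed by -0.93 ± 0.15 (limma adjusted p 1.17e-05). Pdzd2, a multi-PDZ scaffold, had 199, 289 and 328 linear TPM in CDG_HDM lungs, against 415, 452, 461, 520 and 540 TPM in Saline lungs, and changed by -0.84 ± 0.13 (limma adjusted p 1.39e-05). Neither pair of groups overlapped. Selenbp1 had 132, 198 and 218 linear TPM in CDG_HDM lungs, against 276, 282, 289, 299 and 304 TPM in Saline lungs (-0.70 ± 0.12, limma adjusted p 3.29e-05), and the microtubule crosslinker Mtcl1 changed by -0.70 ± 0.15. Others that fell were Tmeff1 (-0.69 ± 0.15), Ghr (-0.68 ± 0.12), Nebl (-0.68 ± 0.14) and Gab1, a docking protein of receptor kinases (-0.53 ± 0.10).

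By role, the linear calls as deposited were 2 higher and 7 lower among 14 membrane proteins, 0 and 9 among 26 GTPase regulators and cytoskeletal proteins, and 0 and 9 among 26 kinases and adaptors. They were 3 and 7 among 26 transcription factors, 0 and 4 among 27 RNA-binding proteins, and 0 and 2 among 25 chromatin proteins. The remaining groups had 1 and 2 of 21 (ubiquitin and SUMO), 1 and 4 of 20 (trafficking and metabolism) and 1 and 5 of 26 (other). Over all symbols tested, 9.35% were higher and 22.8% lower. The counts of 0 higher members depended on the scaling: with linear sums equalised, 8 higher and 2 lower were called among chromatin proteins, 6 and 1 among RNA-binding proteins, 5 and 6 among kinases and adaptors, and 3 and 9 among GTPase regulators and cytoskeletal proteins. As deposited, the transcription factors that rose were Etv6, Ikzf1 and Cbfb. The 7 that fell included Zeb1, a mesenchymal repressor (-0.55 ± 0.11), and Nfix (-0.47 ± 0.10). With linear sums equalised, 6 transcription factors were called higher and 5 lower. Most markers of other cell types fell alongside. Of the lung epithelial and vessel markers 5 of 8 were lower, while Sftpc (0.07 ± 0.11), Sftpb (-0.19 ± 0.13) and Foxj1 (-0.17 ± 0.18) did not pass. The summed linear TPM of the 8 was 39362 to 70652 in CDG_HDM lungs and 85616 to 100004 in Saline lungs. This sum follows the most abundant of the 8 and does not measure all epithelium. All 4 smooth muscle, 6 cardiac, 5 adipocyte and 3 erythroid markers were lower as well. Their part in the members' lower values was not tested.

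Circular and linear changes of the members with a linear call mostly had the same sign. For the 8 members with higher linear TPM, the median log2 change was 0.53 linear and 0.51 circular, and all 8 circular changes were above 0. For the 49 with lower linear TPM, it was -0.43 linear and -0.53 circular, with 45 circular changes below 0 and 4 above. Those above included Nedd4, Prrc2b and Atxn2, of which Nedd4 is among the members with stepped circular values. For the 154 members without a linear call, it was -0.08 linear and -0.13 circular, with 103 circular changes below 0 and 51 above. Over all 211 members, 148 circular changes were below 0 and 63 above, so a shared lower sign was common. These medians are descriptions, and the 2 measures share their libraries.

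The ratio, which a factor common to both tables of a library alters only through the added 1 TPM, passed for 0 of 211 members, where 0.221% of 2266 symbols passed, 0.0883% higher and 0.132% lower. A factor for 1 table alone would move the ratio, and none was tried. At an unadjusted p under 0.05 there were 11 members and 194 of all 2266 symbols, and the lowest limma adjusted p was 0.264, for Atxn1. The median change of the ratio was -0.03 over the members, beside -0.13 over all symbols tested, and it was -0.05, -0.03 and -0.04 in the members with higher, lower and uncalled linear TPM. Etv6 had ratios of 19.6, 22.8 and 30.1 (lowest, median, highest) in CDG_HDM lungs, against 18.1, 21.5 and 32.2 in Saline lungs, and the log2 difference was 0.00 ± 0.11. Selenbp1 had ratios of 1.26, 1.49 and 1.69 in CDG_HDM lungs, against 1.04, 1.51 and 1.57 in Saline lungs. In both cases the groups overlapped over most of their range while linear TPM differed without overlap. Both symbols are among the members with the 5 highest or 5 lowest linear changes. In simulated data on 2266 symbols, the model found 76% of 2-fold and 26% of 1.5-fold rises of the ratio in this comparison, so smaller shifts would often be missed. The run raised 50 members at each of 1.5, 2, 3 and 4-fold together and called 160 symbols, against 5 in the data. The adjustment is stricter when fewer symbols change, so these shares may be too high here.

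**Figure D5:**
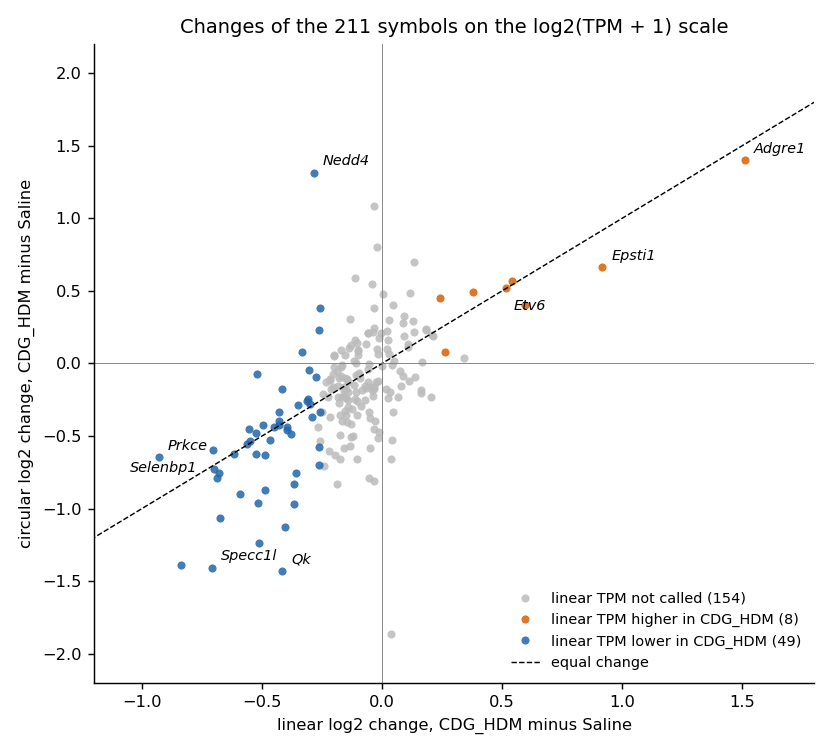
Log2 change of circular TPM against that of linear TPM, CDG_HDM minus Saline, for the 211 members, with 8 members called higher and 49 called lower in linear TPM in colour and a dashed line of equal change. All but 4 of the called members have circular and linear changes of the same sign, with Nedd4 (circular 1.31, linear -0.28) far above the line and Specc1l and Qk below it.

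Factors that form or remove circular RNA were looked at as background in linear TPM. Of 12 formation factors tested, 1 was higher, the splicing regulator Mbnl1 (0.45 ± 0.11). In CDG_HDM lungs 3 were lower, among them Qk (-0.42 ± 0.12) and Ilf2 (-0.22 ± 0.08). Of 10 decay and export factors tested, including Ago2 and Upf1, 0 passed. Of 19 symbols of the circular RNA host list tested, 1 was higher and 5 were lower. Over all 17433 linear symbols, 9.35% were higher and 22.8% lower. These are calls as deposited, and for listed genes that are not members no other scaling is given. In the comparisons with dexamethasone and with AM155, 0 genes of these lists and of the cell type lists passed.

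Upstream sequence was read for the 8 members whose linear RNA was called higher in CDG_HDM as deposited. Their shared direction is how they were picked. RefSeq promoters (GRCm38.p6) were on hand for 7 of them and for 163 members in all. The 250 bases before each start were searched on both strands for the ETS core CCGGAAG, for GAGGAAG, a common form of the box bound by the myeloid factor PU.1, and for a pair of TTTC separated by 2 bases, a form of the interferon-stimulated response element (ISRE). ETS core and PU.1 box share the letters GGAAG. Cbfb and Picalm held the PU.1 box, Lamp3 held the ISRE form, 1 of the 2 Birc2 promoters held the ETS core, and Etv6, Epsti1 and Ikzf1 held none of the 3. Cbfb, Picalm, Lamp3 and, as an example without a match, Etv6 are shown 5′ to 3′ with matches in capitals.

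Cbfb, chr8:105170424-105170673, plus strand: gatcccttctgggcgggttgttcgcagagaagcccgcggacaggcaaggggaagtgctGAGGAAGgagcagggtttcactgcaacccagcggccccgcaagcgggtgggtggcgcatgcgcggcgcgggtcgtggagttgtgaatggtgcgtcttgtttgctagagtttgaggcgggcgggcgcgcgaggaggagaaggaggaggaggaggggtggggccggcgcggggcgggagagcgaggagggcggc

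Picalm, chr7:90129963-90130212, plus strand: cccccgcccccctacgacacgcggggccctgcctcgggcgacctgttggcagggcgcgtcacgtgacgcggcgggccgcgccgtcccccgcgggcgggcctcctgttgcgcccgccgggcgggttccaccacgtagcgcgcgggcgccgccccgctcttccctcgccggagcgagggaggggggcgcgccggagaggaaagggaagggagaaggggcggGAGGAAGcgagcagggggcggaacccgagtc

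Lamp3, chr16:19706366-19706615, minus strand: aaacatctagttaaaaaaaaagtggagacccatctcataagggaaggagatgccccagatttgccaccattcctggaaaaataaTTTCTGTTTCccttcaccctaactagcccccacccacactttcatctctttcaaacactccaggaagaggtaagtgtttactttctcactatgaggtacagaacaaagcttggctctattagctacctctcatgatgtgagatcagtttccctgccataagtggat

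Etv6, chr6:134035450-134035699, plus strand: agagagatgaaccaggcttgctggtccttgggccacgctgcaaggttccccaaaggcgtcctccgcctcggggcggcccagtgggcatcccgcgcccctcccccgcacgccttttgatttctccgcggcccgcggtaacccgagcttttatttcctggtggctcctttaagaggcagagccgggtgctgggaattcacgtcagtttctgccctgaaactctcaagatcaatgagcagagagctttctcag

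Over all 32851 mouse promoters of the table the PU.1 box was in 10.6%, the ETS core in 6.91% and the ISRE form in 2.98%. Over the 230 promoters of the 163 members, the shares were 10.9%, 14.3% and 1.74% in the same order. The full set of promoters was not matched to the members in expression or base content. Whether the ETS core share is particular to the members was therefore not tested. Of the 9 promoters of the 7 higher members, 2 held the PU.1 box, 1 the ETS core and 1 the ISRE form. A match is a description of these letters and shows no binding.

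Dexamethasone was compared as Dex_CDGHDM against CDG_HDM lungs. No member passed for circular TPM, for the ratio or for linear TPM, where 0.044%, 0% and 0.00574% of all symbols passed. At an unadjusted p under 0.05 there were 5, 5 and 6 members, beside 116 of 2271, 112 of 2266 and 693 of 17433 symbols. The median log2 change of the members was -0.05 circular, -0.03 for the ratio and -0.03 linear, and all 211 linear changes lay within 0.5 of 0. The nearest to the threshold, named after their values were seen, were Clec2d, Arhgap26 and Mkln1, each at a limma adjusted p of 0.682 for circular TPM. Clec2d was 175, 204 and 894 circular TPM (lowest, median, highest) in Dex_CDGHDM lungs, against 249, 760 and 967 TPM in CDG_HDM lungs, a log2 difference of -1.21 ± 0.40. Linear Clec2d was 281, 327 and 382 TPM in Dex_CDGHDM lungs, against 315, 358 and 418 TPM in CDG_HDM lungs. The log2 difference of Mkln1, a subunit of a ubiquitin ligase, was -0.72 ± 0.26 and that of Arhgap26, a GTPase-activating protein, -0.56 ± 0.19.

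Members called for sensitization were not called here. Linear Adgre1 had a median of 39.3 TPM in Dex_CDGHDM lungs, against 42.8 TPM in CDG_HDM lungs, and linear Selenbp1 159 TPM, against 198 TPM. Circular Epsti1 was 6.26, 8.59 and 12.5 TPM in Dex_CDGHDM lungs, against 7.46, 14.1 and 18.4 TPM in CDG_HDM lungs. This difference did not pass (-0.53 ± 0.21, limma adjusted p 0.820).

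The antisense oligonucleotide was compared as AM155 against CDG_HDM lungs. Again no member passed for circular TPM, the ratio or linear TPM, where 0%, 0% and 0.103% of all symbols passed (linear, 0.0918% higher and 0.0115% lower). At an unadjusted p under 0.05 there were 9, 7 and 15 members, beside 117 of 2271, 108 of 2266 and 1263 of 17433 symbols. The members' median log2 change was -0.07 circular, 0.02 for the ratio and -0.09 linear. Linear changes were below 0 for 190 of 211 members, and none lay beyond 0.5. The median over all linear symbols was -0.08, close to that of the members.

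Closest to the threshold, named after their values were seen, was Rsf1, a chromatin remodelling subunit, whose ratio had a log2 difference of 0.89 ± 0.22 (limma adjusted p 0.270). Circular Rsf1 was 7.67, 19.1 and 21.0 TPM (lowest, median, highest) in AM155 lungs, against 7.22, 8.46 and 16.8 TPM in CDG_HDM lungs, with a limma adjusted p of 0.622. Circular Cpsf6, a cleavage factor of mRNA 3′ ends, was 14.7, 21.9 and 80.3 TPM in AM155 lungs, against 6.33, 14.4 and 20.8 TPM in CDG_HDM lungs (1.02 ± 0.31). Trim33, a transcriptional cofactor, was 9.88, 13.4 and 30.2 TPM in AM155 lungs, against 18.5, 33.9 and 50.3 TPM in CDG_HDM lungs (-1.09 ± 0.30). All 3 pairs of groups overlapped. AM155 5 and AM155 6 are among the libraries with circular Sftpc above 100000 TPM, and leaving out the 3 such libraries left 0 members called in this comparison and in that of dexamethasone.

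How small a change could have been seen differs by measure. In simulated data with normal noise of each symbol's own spread, the circular model on 2271 symbols found 70%, 68% and 80% of 2-fold rises for sensitization, dexamethasone and AM155, and 18%, 42% and 44% of 1.5-fold rises. The linear model on 17433 symbols found 94%, 90% and 84% of 1.5-fold rises. Each simulated run raised 50 members at each of 1.5, 2, 3 and 4-fold together. The circular model then called 147, 157 and 166 symbols, against 21, 1 and 0 in the data. The adjustment is stricter when fewer symbols change, so these shares may be too high where the data held fewer calls. With 0 circular calls, smaller or less regular differences may have been missed. The comparisons with dexamethasone and with AM155 share the CDG_HDM libraries with that of sensitization, so their values are not independent.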

How the data were processed

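Ribosome-depleted, stranded, paired-end libraries of 27 lungs were grouped as the labels give them. The authors deposited TPM values per gene symbol in 1 table of linear and 1 table of circular RNA. Per the submitters' processing notes, the mm10 build and CASAVA 1.9 were used; no aligner or circular RNA caller is named in the sources used here. Depth per library is unknown from TPM, so no counting interval can be given. The members and lists used here were chosen with earlier results of these data known. Values were transformed as log2(TPM + 1). Circular symbols above 0 in at least 5 libraries (2271), linear symbols with at least 1 TPM in at least 5 libraries (17433) and symbols in both (2266, for the ratio) were each fitted with limma 3.58.1 in R 4.3.3 (1 mean per group, trended variance, all 27 libraries). Tests were two-sided with Benjamini-Hochberg adjustment over all symbols tested, at 0.05. The models were tested on simulated data. Duplicated linear symbols (2) were left out. Named were the 8 most abundant members, the members past the threshold (the 5 highest and 5 lowest where more than 10 passed), the 4 highest and lowest ratios, the 3 most and least variable members and those beside the floor. Any other member was named after its values were seen. Gene structure came from GENCODE M21 and promoters from RefSeq. Other pseudocounts, filters and scalings, the 2 groups alone, a replicate block and leaving out each library were tried. Results for a few genes are not reported here.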

Additional observations from a re-analysis of the deposited data

Results flagged for a closer look

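Single libraries stood apart from their group by Dixon's criterion in 5 of 40 groups of values (circular TPM of 10 members in 4 groups), where chance alone flags about 5%. Circular Clec2d was 893.6 TPM in Dex_CDGHDM 1, above 175 to 236 TPM in the rest of its group, and circular Etv6 was 905.7 TPM in the same library, above 543 to 652 TPM. Circular Ddx17 was 131.6 TPM in CDG_HDM 4, below 395 to 725 TPM in the other CDG_HDM libraries. Circular Macf1 was 44.9 TPM in CDG_HDM 14, below 151 to 428 TPM, and 3412 TPM in Saline 2, above 187 to 320 TPM.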

How the results depend on the processing

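For CDG_HDM minus Saline, the 2 circular calls among members became 0 without the filter, with circular sums equalised, with only the 2 groups in the fit and with the libraries of high circular Sftpc left out (added after seeing the data). They became 4 with linear sums equalised and with median-of-ratios factors from circular symbols (also added later), and 29 when only symbols above 0 in all libraries were tested; leaving out 1 library gave 0 to 4. The 57 linear calls became 93 with median-of-ratios scaling and 42 to 74 without 1 library. In the comparison with dexamethasone, 1 member, higher, was called in linear TPM with median-of-ratios scaling. With the replicate block, 0 circular and 33 linear members were called for sensitization, and the block changed no other count. Deviations of same-numbered libraries from their group means had correlations between -0.24 and 0.27. With 3 or 4 such pairs per comparison, these values cannot decide whether the numbers pair mice, and the main fits use no pairing. The ratio gave 0 calls in all 3 comparisons under every alternative run, as did circular TPM in both treatment comparisons. Of the alternative values of single named members, 234 kept their call, 36 lost it and 0 reversed. The lost ones were circular calls of Adgre1 and Specc1l, except for linear Ikzf1 with the replicate block and without Saline 4. The kept ones were mostly linear, so the pooled count does not describe the circular calls. Depth is unknown, and the cause of these shifts was not tested beyond the symbols or libraries each setting removes.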
